A study of Mus musculus with 8 samples.

Results

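The machinery that makes and places meiotic DNA double-strand breaks (DSBs) was examined through 8 of the 25239 gene symbols counted in RNA-Seq libraries of E14.5 mouse ovaries. The genes were *Spo11*, *Gm960* (also called *Top6bl*), *Mei4*, *Ccdc36* (also called *Iho1*), *Ankrd31*, *Mei1*, *Prdm9* and *Zcwpw1*, chosen by symbol for what their proteins do in meiosis. Earlier results of these data were known when they were chosen. Among them, 7 were downregulated in ovaries whose germ cells had been targeted for deletion of *Bmpr1a*, a type I receptor for bone morphogenetic proteins (BMPs), and *Spo11* was not called in either direction. *Mei1* was reduced most, to 13.2% of its control level, whereas *Spo11* stood at 96.0%.

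In meiotic prophase the SPO11 complex cuts chromosomal DNA, and the breaks are repaired from the homologous chromosome, which lets homologues pair and exchange DNA. The cutting enzyme acts together with accessory proteins that assemble on the chromosome axis, and in mice the histone methyltransferase PRDM9 sets the places (hotspots) where cutting occurs. In the mouse ovary germ cells enter meiosis during fetal life, so transcripts of these genes accumulate in the fetal gonad.

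The comparison asked what loss of this receptor in germ cells does to the ovarian transcriptome. The control group was *Bmpr1a* fl/fl, with both alleles floxed and no Cre, and the *Bmpr1a*-cKO group carried the same floxed alleles with *Oct4-Cre* Cre/WT. All embryos were on a C57BL/6 background and were collected at E14.5. Their dams had received 4-hydroxytamoxifen (1 mg) and progesterone (0.5 mg) on 3 days (9.5 dpc, then 10.5 dpc, then 11.5 dpc), so drug exposure was common to both groups. Cre from the *Oct4* driver was tamoxifen-inducible and acts in germ cells, while the somatic cells of the ovary keep *Bmpr1a*. Each of the 4 libraries per group came from the pooled ovaries of 2 embryos out of 6 litters, and the litter of each library is not given in the sources used here. In whole ovaries, fewer germ cells, a smaller share of germ cells in meiosis and less RNA per germ cell cannot be told apart.

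Depth was 8562961 to 15365052 counts per library, and no pair of libraries within a group agreed within sampling noise. *Bmpr1a* itself, counted over the whole gene in all cell types, was 218 ± 15.3 CPM (counts scaled to library size with TMM factors, SD, n = 4) in control and 195 ± 10.5 in *Bmpr1a*-cKO libraries, with a Log2FC of −0.16 that did not pass the threshold (edgeR, FDR = 0.0692). *Zglp1*, a germ cell transcription factor gene induced by BMP, went from 6.56 ± 1.94 to 2.67 ± 0.660 CPM (FDR = 0.000726). The germ cell markers *Ddx4* and *Dazl*, which encode RNA-binding proteins, were present in every library. The sum of 11 germ cell markers spanned 784 to 1027 CPM in the controls and 774 to 1228 in *Bmpr1a*-cKO libraries, so the groups overlapped. Within that list 3 genes were higher and 2 lower DEGs, beside 6.11% and 4.06% of all genes tested, so its members did not all move one way.

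Promoter sequence was at hand for 7 of the 8 genes, from RefSeq on GRCm38.p6, with 9 start sites in all. Each window ran from 250 bases before to 50 bases after a start site. They were searched on both strands for 4 short motifs, namely the STRA8-MEIOSIN motif CNCCTCAG, the E2F motif GGCGGGAA, the E-box CACGTG and the GC-rich SMAD motif GGCGCC. Only *Prdm9* had a match upstream of a start. *Prdm9* has 2 starts in the table, and the match lay before the upstream one, which coincides with the start of a retained-intron transcript in GENCODE vM21, while the start nearest a protein-coding transcript had no match. Before the upstream start a reverse E2F match began at −47 and a STRA8-MEIOSIN match at −41, overlapping by a pair of bases, and a further STRA8-MEIOSIN match began at 15 bases past the start. *Mei4* and *Ccdc36* each held GGCGCC downstream of the start, and no other window held any of the 4 motifs. The *Ccdc36* start lay upstream of the gene as GENCODE vM21 draws it (offset −3342 bases from the nearest start there). Over all 32851 promoter windows in the table the shares were 7.94% for CNCCTCAG, 2.19% for GGCGGGAA, 7.15% for CACGTG and 11.9% for GGCGCC. A match is a run of letters, and no protein binding was measured here.

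These 4 upstream sequences, each of 250 bases and written 5′ to 3′ in the direction of transcription, are examples from these genes. *Prdm9* is given for its paired match, which stands in capitals, and *Mei1* because its transcript changed most. *Zcwpw1* and *Gm960* are given for their CpG content. Their positions were chr17:15564355-15564604 (minus strand) for *Prdm9*, chr15:82082226-82082475 (plus strand) for *Mei1*, chr5:137787081-137787330 (plus strand) for the upstream start of *Zcwpw1* and chr19:4698669-4698918 (minus strand) for *Gm960*.
Prdm9: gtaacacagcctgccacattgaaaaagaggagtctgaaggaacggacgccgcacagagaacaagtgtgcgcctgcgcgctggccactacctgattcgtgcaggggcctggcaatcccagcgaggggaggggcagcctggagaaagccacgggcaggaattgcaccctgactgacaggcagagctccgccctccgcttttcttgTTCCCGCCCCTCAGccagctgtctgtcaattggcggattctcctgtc
Mei1: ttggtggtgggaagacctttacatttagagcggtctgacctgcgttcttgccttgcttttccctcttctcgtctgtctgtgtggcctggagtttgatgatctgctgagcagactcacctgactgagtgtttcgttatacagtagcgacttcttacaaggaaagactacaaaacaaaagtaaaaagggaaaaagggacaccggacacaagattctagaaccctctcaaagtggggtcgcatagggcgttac
Zcwpw1: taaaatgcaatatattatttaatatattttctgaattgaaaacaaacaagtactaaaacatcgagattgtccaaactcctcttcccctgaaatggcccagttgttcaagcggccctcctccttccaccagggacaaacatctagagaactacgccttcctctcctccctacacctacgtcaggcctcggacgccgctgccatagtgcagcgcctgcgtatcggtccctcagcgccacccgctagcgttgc
Gm960: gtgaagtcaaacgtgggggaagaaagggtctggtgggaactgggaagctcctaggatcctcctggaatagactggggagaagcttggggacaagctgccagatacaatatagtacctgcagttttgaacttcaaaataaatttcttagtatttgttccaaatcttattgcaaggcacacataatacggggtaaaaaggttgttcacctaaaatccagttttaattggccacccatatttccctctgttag

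The *Zcwpw1* sequence held 13 CpG dinucleotides, an observed-over-expected CpG ratio of 0.933, and the *Gm960* sequence held 2, a ratio of 0.178. The other start of *Zcwpw1*, not printed, had 16 CpG dinucleotides and a ratio of 0.996, the highest of the 9. The printed *Zcwpw1* start lay upstream of the gene as GENCODE vM21 draws it (offset −467 bases from the nearest start there). The start not printed lay close to a start in GENCODE vM21 (offset 4 bases). *Prdm9* (ratio 0.563) and *Mei1* (ratio 0.579) lay between the printed *Gm960* and *Zcwpw1* sequences. Across the 9 start sites the median ratio was 0.560, beside 0.374 for all promoters in the table. The *Mei1* start lay inside the gene as GENCODE vM21 draws it, where another, longer transcript begins farther upstream.

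*Spo11* and *Gm960* encode the subunits of the cutting complex, the catalytic subunit and its TopoVIB-like partner. *Spo11* (ENSMUSG00000005883, chr2:172977700-172993576 on mm10) had 9.95, 5.93, 10.3 and 10.1 CPM in control libraries 1 to 4 and 5.84, 9.22, 9.74 and 9.69 CPM in *Bmpr1a*-cKO libraries 1 to 4. In each group 3 libraries were close together and 1 was lower, so the groups overlapped almost completely. The Log2FC was −0.06 (SE 0.18, 95% confidence interval −0.44 to 0.33, edgeR quasi-likelihood test, FDR = 0.841). That interval leaves room for a modest change either way, and the sign turned to 0.07 without *Bmpr1a*-cKO library 1.

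*Gm960* (ENSMUSG00000071691, chr19:4625734-4698668) was the gene with the fewest reads, with 28 to 76 counts in control and 7 to 27 counts in *Bmpr1a*-cKO libraries. It had 4.19, 2.48, 2.997 and 4.796 CPM in control libraries and 0.835, 1.93, 2.51 and 1.84 CPM in *Bmpr1a*-cKO libraries. Only *Bmpr1a*-cKO library 3 reached into the control range, just above control library 2. *Gm960* was a downregulated DEG, defined as an absolute Log2FC above 0.5 with an FDR below 0.05 (Log2FC −1.02, SE 0.27, edgeR, FDR = 0.0115). Without control library 4 it was not (Log2FC −0.84, FDR = 0.0512).

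The catalytic subunit and its partner therefore moved by different amounts, and their ratio within each library was compared directly. The log2 ratio of *Gm960* to *Spo11* was −1.21, −1.20, −1.73 and −1.05 in control and −2.59, −2.16, −1.89 and −2.29 in *Bmpr1a*-cKO libraries. All *Bmpr1a*-cKO ratios were below all control ratios, a mean difference of −0.93 (two-sided exact permutation p = 0.0286, which no comparison of 4 with 4 libraries can go below, and 0.0413 adjusted over 13 ratios). With *Bmpr1a*-cKO library 1, 2 or 4 left out the groups of ratios still differed in the same direction and did not overlap. The exact permutation p was then 0.0571.

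**Figure D1:**
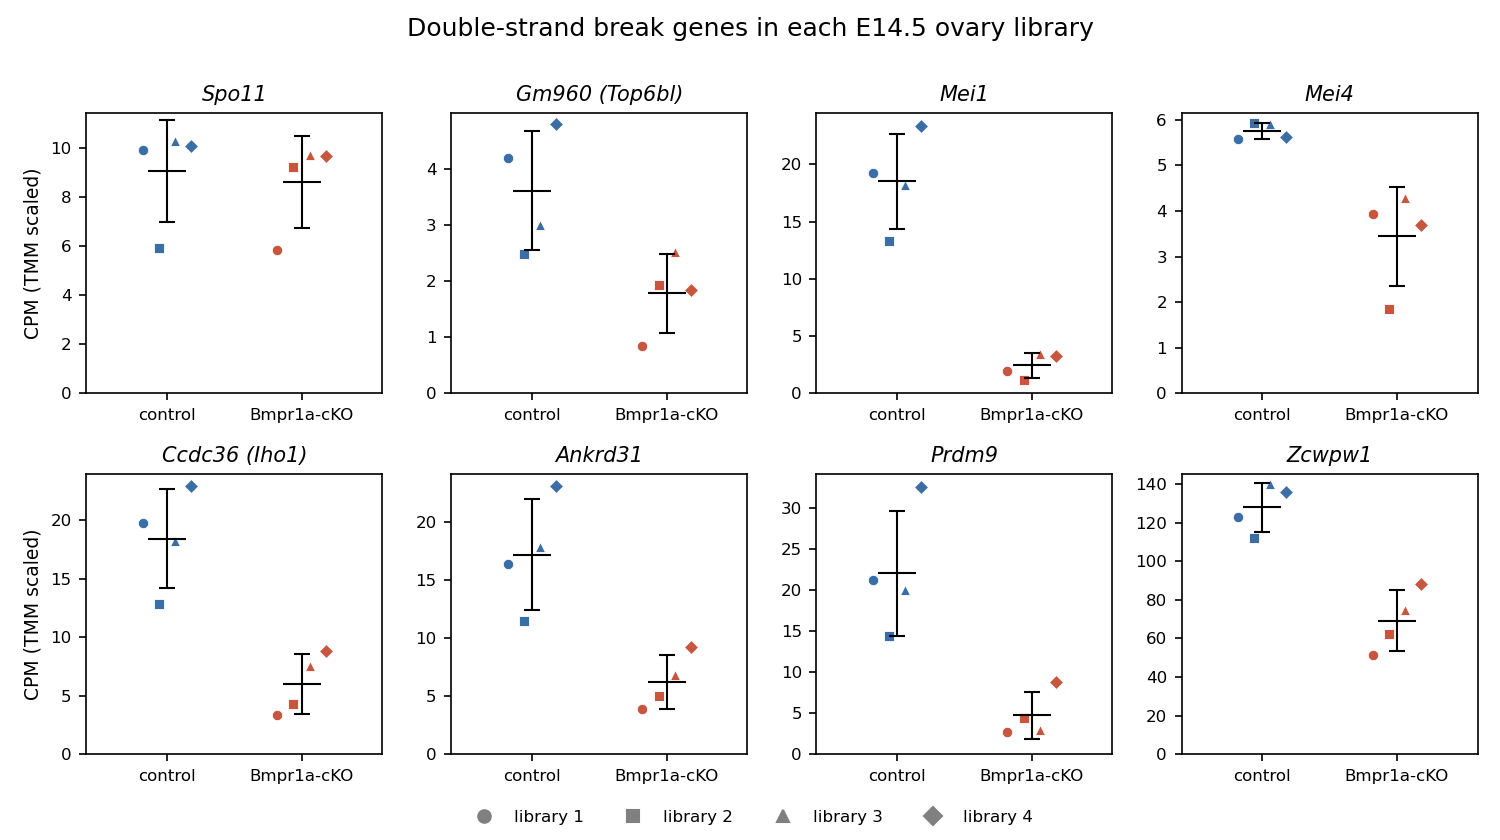
CPM (TMM scaled, vertical axes from 0) of the 8 DSB genes in control (blue) and *Bmpr1a*-cKO (red) libraries, with the marker shape giving the library number and bars the mean and SD of 4 libraries. *Mei1* went from 13.3 to 23.4 CPM in control libraries to 1.19 to 3.45 CPM in *Bmpr1a*-cKO libraries, while the groups overlapped for *Spo11* and *Gm960*.

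Accessory proteins came next. MEI4, the partner of REC114, IHO1, ANKRD31 and MEI1 are each needed for normal DSB formation in mouse meiocytes, and IHO1 links this group to the axis protein HORMAD1. *Mei1* (ENSMUSG00000068117, chr15:82069996-82126814) had 19.2, 13.3, 18.2 and 23.4 CPM in control libraries and 1.91, 1.19, 3.45 and 3.28 CPM in *Bmpr1a*-cKO libraries. The lowest control library was several times the highest *Bmpr1a*-cKO library. The Log2FC of −2.92 (SE 0.24, interval −3.43 to −2.41, edgeR, FDR = 6.60e-07) was the 3rd lowest of all 14249 genes tested.

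*Ccdc36* (ENSMUSG00000047220, chr9:108403611-108428484) had 19.7, 12.8, 18.2 and 22.9 CPM in control libraries and 3.34, 4.31, 7.54 and 8.80 CPM in *Bmpr1a*-cKO libraries. It fell by 1.59 on the log2 scale (SE 0.23, edgeR, FDR = 0.000113), to 33.2% of control, and the groups did not overlap. *Ankrd31* (ENSMUSG00000109561, chr13:96748272-96910039), whose protein binds REC114, had 16.4, 11.4, 17.8 and 23.1 CPM in control libraries and 3.93, 4.98, 6.80 and 9.21 CPM in *Bmpr1a*-cKO libraries. Its groups were also separate, and it fell by 1.43 (SE 0.23, FDR = 0.000250), to 37.0% of control. *Mei1*, *Ccdc36* and *Ankrd31* each had their lowest control value in library 2 and their highest in library 4.

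*Mei4* (ENSMUSG00000043289, chr9:81863670-82206007) had another pattern. Its control libraries were nearly equal at 5.59, 5.93, 5.90 and 5.62 CPM, and its *Bmpr1a*-cKO libraries had 3.93, 1.86, 4.29 and 3.68 CPM. The control coefficient of variation was 3.15%, the lowest of the 8 genes, and the *Bmpr1a*-cKO value was 31.5%. *Mei4* was downregulated by 0.77 on the log2 scale (SE 0.20, interval −1.21 to −0.33, edgeR, FDR = 0.0104), the smallest decrease among the 7 DEGs, with no overlap between the groups.

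*Mei1*, *Ccdc36* and *Ankrd31* were each set against *Mei4* within libraries. The log2 ratio of *Mei1* to *Mei4* was 1.75, 1.14, 1.60 and 2.02 in control and −0.98, −0.58, −0.30 and −0.16 in *Bmpr1a*-cKO libraries. The ratio was above 0 in each control library and below 0 in each *Bmpr1a*-cKO library, a mean difference of −2.13 (exact permutation p = 0.0286, adjusted 0.0413). For *Ccdc36* to *Mei4* the difference was −0.89 (exact p = 0.0857, adjusted 0.101) and for *Ankrd31* to *Mei4* −0.69 (exact p = 0.143, adjusted 0.155). Neither of these ratios passed the threshold, and the groups overlapped for both. Whether *Mei1* changed by another amount than *Ccdc36* or *Ankrd31* was not tested.

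**Figure D2:**
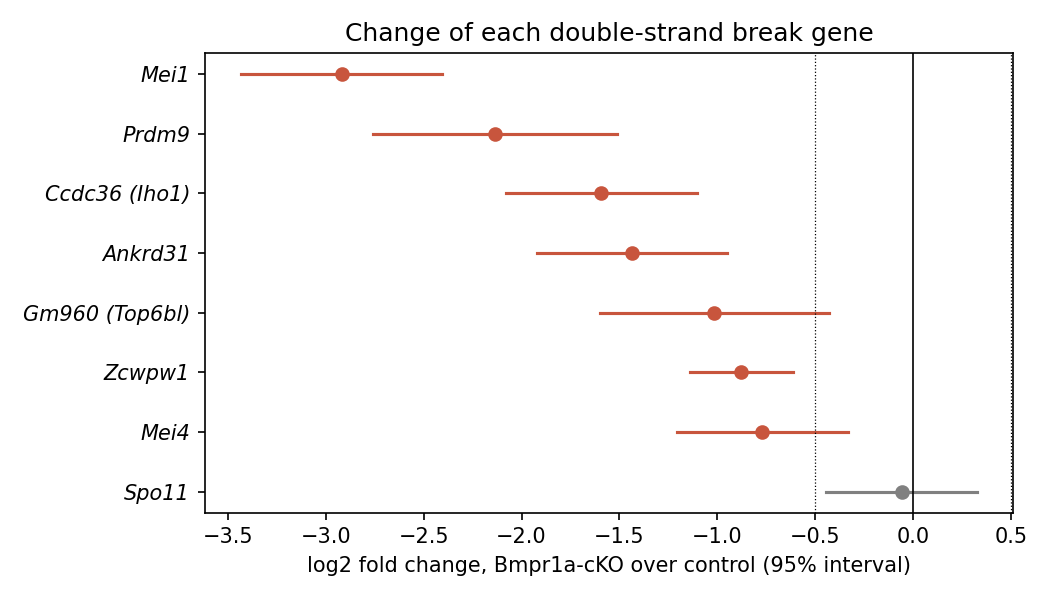
Log2FC of each DSB gene (*Bmpr1a*-cKO over control, horizontal axis) with its 95% interval, derived from the edgeR test statistic. Genes are ordered by size, dotted lines stand at an absolute Log2FC of 0.5, and DEGs are in red. Estimates ran from −2.92 for *Mei1* to −0.06 for *Spo11*, and the interval of *Spo11* alone included 0.

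The remaining pair acts at hotspots. PRDM9 binds DNA through its zinc fingers and methylates nearby histones, and ZCWPW1 binds histones carrying those marks and promotes repair of the breaks. *Prdm9* (ENSMUSG00000051977, chr17:15543079-15564354) had 21.2, 14.4, 20.04 and 32.6 CPM in control libraries and 2.74, 4.46, 2.93 and 8.87 CPM in *Bmpr1a*-cKO libraries. Library 4 was highest in each group, and *Prdm9* had the widest relative spread of the 8 genes, with coefficients of variation of 34.6% and 60.0%. The groups were nevertheless separate, and the Log2FC was −2.14 (SE 0.29, interval −2.76 to −1.51, edgeR, FDR = 7.31e-05), which left 22.8% of the control level.

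*Zcwpw1* (ENSMUSG00000037108, chr5:137787798-137822621) had the most counts of the 8 genes, with 123, 112, 140.2 and 136 CPM in control libraries. In *Bmpr1a*-cKO libraries it had 51.5, 62.5, 74.7 and 88.2 CPM, all below the lowest control. It fell by 0.88 on the log2 scale (SE 0.12, interval −1.14 to −0.62, edgeR, FDR = 8.61e-05), the most precise estimate in the group. Its exons share 468 bases, 8.22% of their length, with *Pilra* on the opposite strand. *Pilra* was at 0.249 ± 0.110 CPM in the control group and at 0.243 ± 0.106 in the *Bmpr1a*-cKO group, too low to be tested, and no other DSB gene shared exon bases with another gene.

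*Prdm9*, which writes the mark, and *Zcwpw1*, which reads it, also moved by different amounts. The log2 ratio of *Zcwpw1* to *Prdm9* was 2.53, 2.95, 2.80 and 2.05 in control and 4.15, 3.76, 4.60 and 3.29 in *Bmpr1a*-cKO libraries. Every *Bmpr1a*-cKO library had the higher ratio, by a mean of 1.37 (exact permutation p = 0.0286, adjusted 0.0413). With any 1 of the control libraries left out the exact p was 0.0571, which did not pass the threshold. The groups of ratios still did not overlap, and groups of unequal size can give such a p without overlap.

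As a group, 8 of 8 genes passed the filter on low counts, and 7 were downregulated DEGs, beside 4.06% of all 14249 genes tested. For 6 of the 8 genes all *Bmpr1a*-cKO libraries lay below all control libraries, beside 11.7% of all genes tested. The median Log2FC of the 8 genes was −1.23, against 0.00 over all genes. The 8 genes, and the lists of other genes below, were chosen with earlier results of these data known. Their shares beside those of all genes therefore describe the genes and are not a test. With each of the other tests, scalings and filters tried, 7 genes were called, and 6 were called without control library 4.

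The libraries themselves ranked alike across genes. Control library 2 was the lowest control for 7 of the 8 genes and control library 4 the highest for 5. *Bmpr1a*-cKO library 1 was the lowest of its group for 6 genes. It also had the fewest counts and the lowest germ cell marker sum of its group, 774 CPM, whereas control library 2 had 882 CPM of germ cell markers, the second highest among controls. What part these differences had in the values of single libraries was not tested.

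To set each gene against a germ cell transcript from the same library, its ratio to *Ddx4* was taken. *Ddx4* had 128, 151, 168 and 121 CPM in the controls and 106, 167, 159 and 179 in the *Bmpr1a*-cKO libraries, and did not pass the test (Log2FC 0.11, edgeR, FDR = 0.561). Relative to *Ddx4*, *Mei1* differed by −3.003, *Prdm9* by −2.37, *Ccdc36* by −1.76, *Ankrd31* by −1.56, *Gm960* by −1.09 and *Zcwpw1* by −0.998 on the log2 scale, and for these 6 genes the groups did not overlap (exact permutation p = 0.0286 each, adjusted 0.0413). *Mei4* differed by −0.87 with overlap (exact p = 0.0571, adjusted 0.0743), and *Spo11* by −0.16 (exact p = 0.457). *Spo11* was the gene whose ratio to *Ddx4* was most even in the *Bmpr1a*-cKO group, between −4.19 and −4.01, while its control ratios ran from −4.63 to −3.56. Without control library 2 the difference for *Spo11* became −0.38 (exact p = 0.0286), and without *Bmpr1a*-cKO library 1 that for *Mei4* became −1.12 (exact p = 0.0286). With a library left out, the ratio for *Gm960* passed the threshold only without control library 2 or 3. Without *Bmpr1a*-cKO library 1 its exact permutation p reached 0.114. The ratio for *Ankrd31* did not pass without *Bmpr1a*-cKO library 2 (exact p = 0.0571). For *Gm960* and *Ankrd31* the groups of ratios did not overlap with any library left out.

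**Figure D3:**
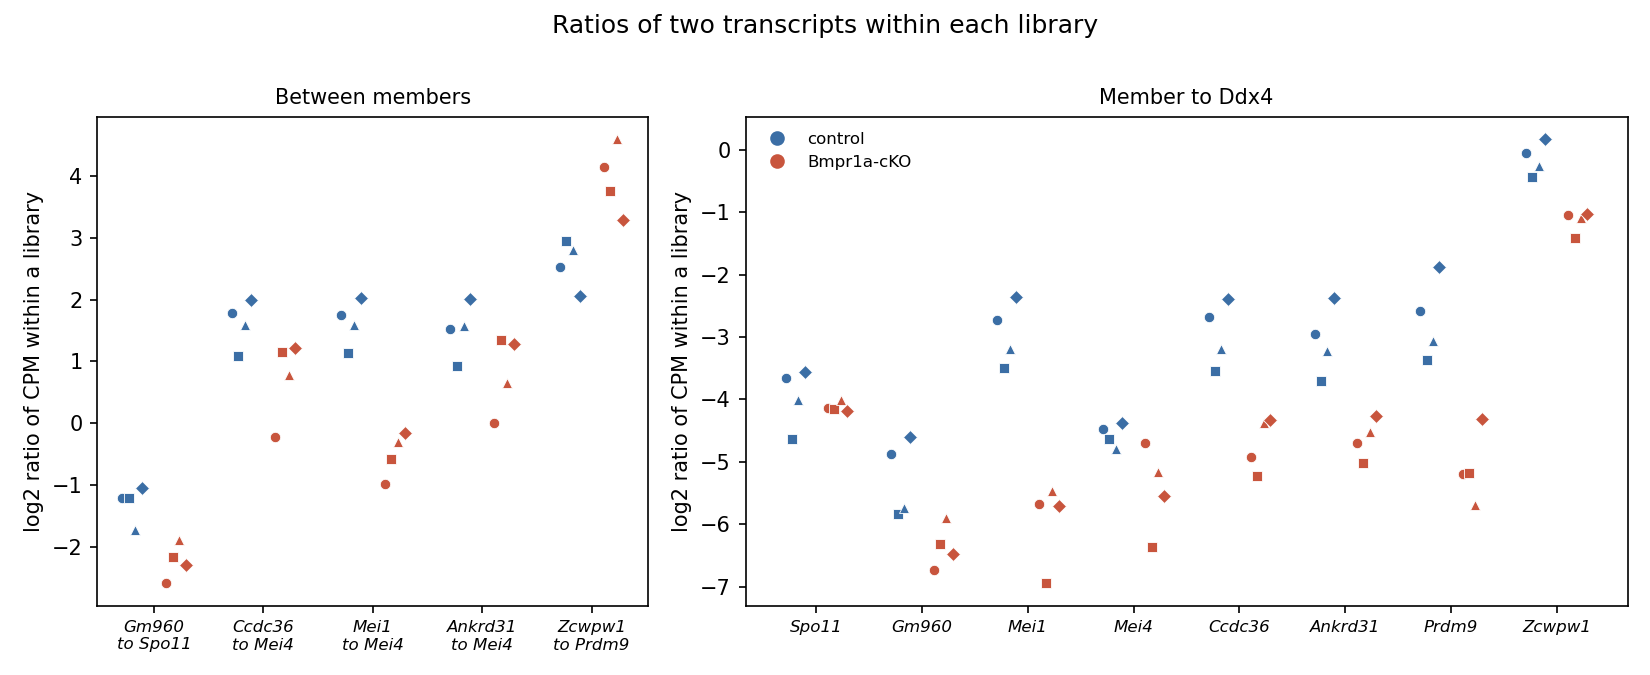
Log2 ratio of CPM within each library (vertical axes), between DSB genes (left) and of each DSB gene to *Ddx4* (right), in control (blue) and *Bmpr1a*-cKO (red) libraries, with marker shapes for libraries as in the plot of CPM by library. For *Zcwpw1* to *Prdm9* the *Bmpr1a*-cKO libraries lie above all controls, and *Spo11* to *Ddx4* shows full overlap, with a mean difference of −0.16.

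*Dazl*, a second germ cell marker, was higher in *Bmpr1a*-cKO libraries (327 ± 45.3 against 506 ± 95.1 CPM, edgeR, FDR = 0.00101). Macrophage markers summed to 35.5 to 44.9 CPM in the controls and 47.8 to 59.3 in *Bmpr1a*-cKO libraries. Of 7 tested, 3 were higher DEGs, beside 6.11% of all genes tested. Pregranulosa markers summed to 2357 to 2684 CPM and 2020 to 2402 CPM, with 1 of 12 (*Foxl2*) a lower DEG, beside 4.06% of all genes. Of those 12, 7 had all *Bmpr1a*-cKO libraries below all controls, beside 11.7% of all genes, and their median Log2FC was −0.28. Sertoli markers summed to 16.02 to 18.1 and 12.04 to 13.1 CPM, with 1 of 5 tested (*Cyp26b1*) a lower DEG, beside the same 4.06%. No tested marker of stroma (7 genes), endothelium (8), erythroid cells (6) or mesonephros (5) was a DEG, and their summed ranges overlapped. The haemoglobin genes *Hba-a1* and *Hba-a2* had 0 counts in every library. The part of these cell types in the decrease of the DSB genes was not tested.

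Read per length of exon, as RPKM (CPM divided by exon length in kilobases), the 8 genes stood in a fixed order in control ovaries. *Zcwpw1* led with 22.4 ± 2.23 RPKM, followed by *Ccdc36* (6.37), *Prdm9* (5.13), *Mei1* (3.91), *Ankrd31* (2.77), *Spo11* (2.31), *Mei4* (1.40) and *Gm960* (0.977). Each of these was above the next in 4 of 4 libraries, although the SDs of neighbours overlapped from *Ccdc36* to *Spo11*. In *Bmpr1a*-cKO ovaries *Zcwpw1* still led with 12.1 ± 2.77 RPKM, and *Spo11* came second with 2.20 ± 0.476 RPKM.

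*Ccdc36* (2.08), *Prdm9* (1.10), *Ankrd31* (1.00), *Mei4* (0.835), *Mei1* (0.518) and *Gm960* (0.481 RPKM) came after it. *Spo11* and *Ccdc36* were not separable there, as *Spo11* was above in 2 of 4 libraries. *Mei1* went from the 4th place to the 7th. The order among middle genes depended on the length used: *Spo11* had 3921 bases over the union of exons but 1709 in its longest coding transcript. With the latter, an alternative chosen after the data were seen, *Spo11* was the 4th gene in control (5.31 RPKM) and again the 2nd in *Bmpr1a*-cKO ovaries (5.05 RPKM), and *Mei1* went from the 5th (4.48) to the last (0.595).

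**Figure D4:**
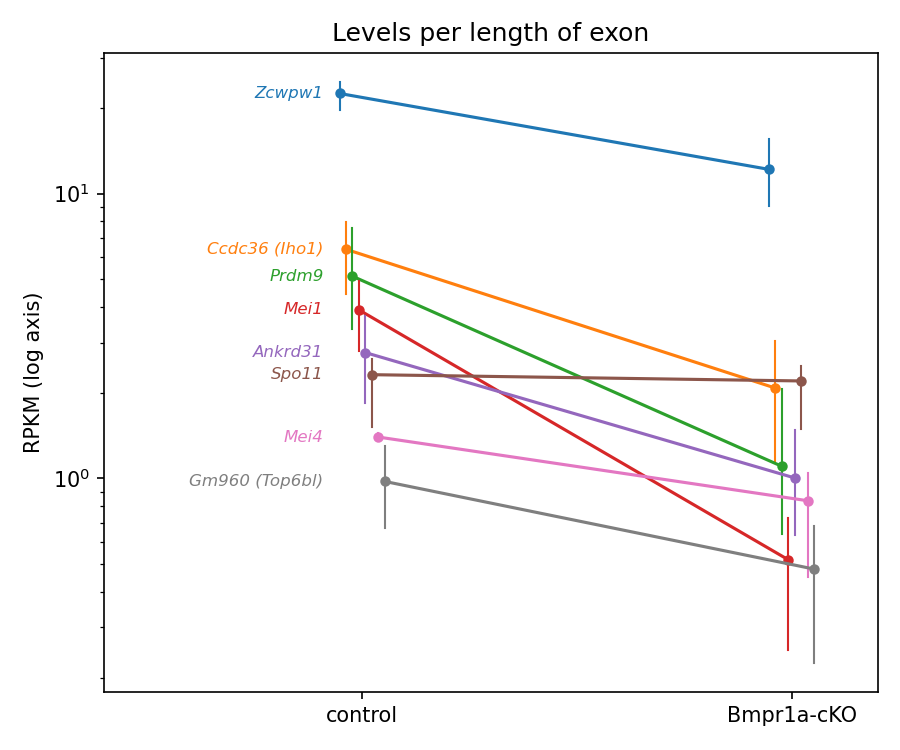
Mean RPKM over the union of exons (vertical log axis) of the 8 DSB genes in control and *Bmpr1a*-cKO ovaries, with vertical lines from the lowest to the highest of 4 libraries. *Spo11* stays near level at 2.31 and 2.20 RPKM while *Mei1* drops from 3.91 to 0.518 and crosses the lines of *Ankrd31*, *Spo11* and *Mei4*.

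Other genes with a known part in break formation or in the chromosome axis that supports it were measured from a fixed list of 16, of which 14 were tested. Of these, 5 were lower DEGs (4.06% of all genes tested were), 0 were higher (6.11% of all genes) and 9 were not called, with a median Log2FC of −0.39. The 5 were all axis or cohesin genes, *Rad21l* (−2.49), *Sycp3* (−1.36), *Sycp2* (−1.09), *Smc1b* (−1.05) and *Stag3* (−0.80). *Rec114*, whose protein forms a complex with MEI4, was not among them. It had 7.81, 7.44, 7.12 and 7.64 CPM in the controls and 4.29, 7.66, 7.33 and 7.64 in the *Bmpr1a*-cKO libraries, where only library 1 stood below the controls (Log2FC −0.13, interval −0.47 to 0.20, edgeR, FDR = 0.577).

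*Hormad1*, the axis partner of IHO1, was 71.2 ± 8.32 CPM in control and 55.1 ± 13.8 in *Bmpr1a*-cKO libraries and was not called (FDR = 0.0604). *Hormad2* had a Log2FC of −0.43 (FDR = 0.0314) and *Rec8*, a meiotic cohesin gene, of −0.49 (FDR = 0.000288), both short of the fold threshold. *Trip13*, which encodes the ATPase that removes HORMAD proteins from axes, was higher in every *Bmpr1a*-cKO library than in any control (30.4 ± 3.05 against 42.5 ± 2.06 CPM, Log2FC 0.49, FDR = 0.000317), just under that threshold. *Atm*, the kinase gene that limits break number, had a Log2FC of −0.28 (FDR = 0.00471). This list thus gave 9 calls of 14 when no fold threshold was set, 8 of them lower, beside 29.8% of all genes in either direction. With the fold threshold kept, 8 were called without *Bmpr1a*-cKO library 3 (7 lower), beside 5 with all libraries.

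Genes that process broken ends and signal their presence were taken from a list of 17, of which 15 were tested. There was 1 lower DEG and 1 higher DEG, beside 4.06% and 6.11% of all genes tested, and the median Log2FC was 0.12. The lower gene was *Atr*, which encodes a checkpoint kinase (233 ± 19.8 against 145 ± 20.4 CPM, Log2FC −0.69), and the higher was *Rpa1*, which encodes a single-strand binding protein (98.6 ± 8.24 against 153 ± 10.6 CPM, Log2FC 0.64). With no fold threshold 8 of the 15 were called, of which 3 were lower and the rest higher, beside 29.8% of all genes in either direction.

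Genes of strand invasion and crossover formation, which act on breaks once made, gave 10 lower DEGs of 22 tested and 0 higher, beside 4.06% lower and 6.11% higher over all genes, with a median Log2FC of −0.33. *Meiob* (−2.59) and *Spata22* (−2.33), which encode partners that bind single-stranded DNA in meiosis, fell most. *Dmc1*, the meiotic recombinase gene, went from 39.8 ± 6.15 to 18.7 ± 5.31 CPM (Log2FC −1.07, edgeR, FDR = 0.000131). Other lower genes included *Hfm1* (−1.67), *Mcmdc2* (−1.39), *Msh5* (−1.22), *Msh4* (−1.04), *4930432K21Rik* (−1.01) and *Tex15* (−0.79). The difference between these lists was not tested.

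**Figure D5:**
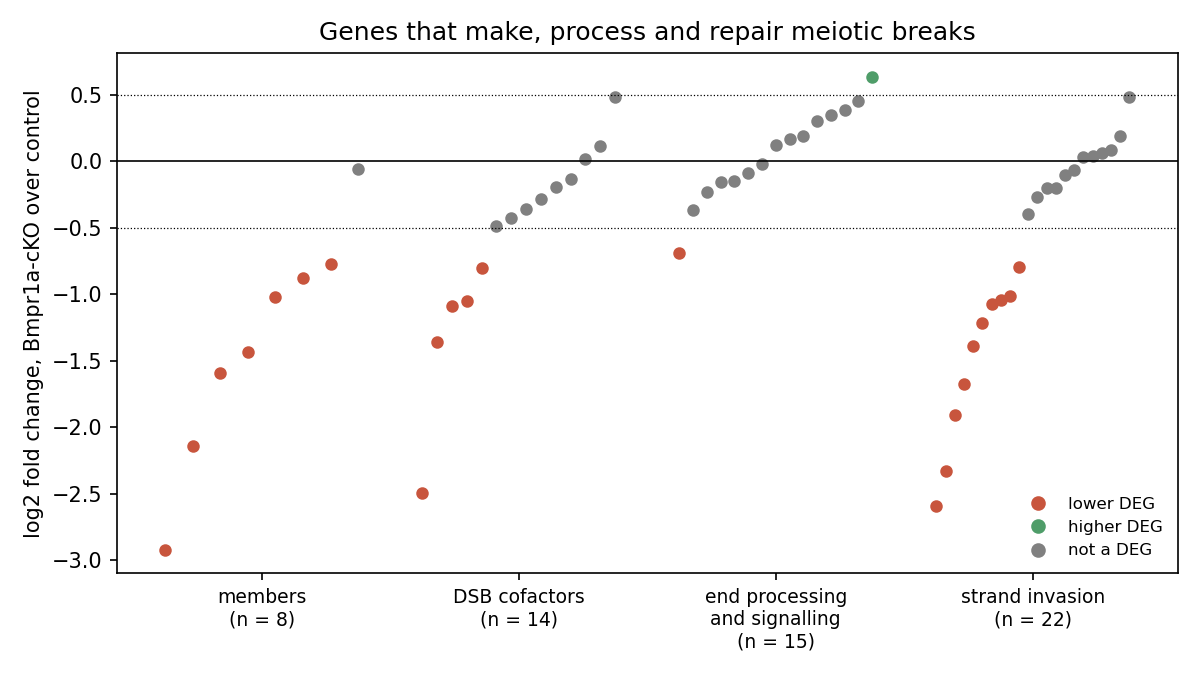
Log2FC (vertical axis) of each tested gene in the 8 DSB genes and in 3 lists of genes that support, process or repair breaks, 1 point per gene ordered by value, with DEGs coloured and dotted lines at an absolute Log2FC of 0.5. The DSB genes hold 7 lower DEGs of 8, the cofactors 5 of 14, the end processing list 1 of 15 and the strand invasion list 10 of 22.

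The mean profile of the 8 genes over the 8 libraries, each gene centred on its own mean log2 CPM, was 0.76, 0.29, 0.72 and 1.00 in control and −1.15, −0.93, −0.45 and −0.23 in *Bmpr1a*-cKO libraries. *Ankrd31* lay nearest to it, with a mean absolute difference of 0.108, followed by *Ccdc36* (0.162), *Zcwpw1* (0.238) and *Gm960* (0.281). *Mei4* (0.394), *Prdm9* (0.479) and *Spo11* (0.658) followed, and *Mei1* lay farthest (0.764). Outside the 8 genes, the 5 nearest among all genes tested were *Gm15246* (0.0644), *Sox30* (0.0869), *Msh5* (0.0965), *Tesmin* (0.104) and *Ddx43* (0.116). All were lower DEGs, which follows from choosing genes near a profile that is lower in the *Bmpr1a*-cKO group. *Msh5*, which encodes a crossover protein, is the only one of these 5 that was also in the lists above.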

How the data were processed

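RNA-Seq was performed on 8 libraries of E14.5 ovaries, 4 per genotype. The authors deposited whole-number read counts per gene symbol, without normalization. Per the labels and the submitters' processing notes, libraries were strand-specific and paired-end, and the tools named were Trimmomatic 0.39, FastQC 0.11.9, STAR 2.5.2 and edgeR, with mm10. The annotation and strand setting of the counting are not given in the sources used here. A deposited table of CPM was not used.

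CPM, fold changes and tests were computed from the counts in R 4.3.3 with edgeR 4.0.16 (filterByExpr, TMM, quasi-likelihood test, two-sided, Benjamini-Hochberg adjustment over 14249 genes). Limma 3.58.1 (voom) and DESeq2 1.42.0 were alternatives, beside other scalings, filters, the replicate number as a block and each library left out. Log2 ratios within libraries carried a prior count of 2 and were compared by exact permutation (70 arrangements, two-sided). The SE of a Log2FC was derived as its absolute value over the square root of the edgeR F statistic. Confidence intervals are at 95%, from that SE and the t distribution, and are approximate. A floor of 3 counts was 0.189 to 0.358 CPM, for counting error only. P-values measure the spread between these pools. The procedure was tested on simulated data.

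Gene positions, exon unions and overlaps came from GENCODE vM21 (all 8 genes matched by symbol), and promoters from RefSeq (GRCm38.p6), both on the mm10 assembly. The 8 genes and all lists were chosen with earlier results of these data known. Named genes were the 8 genes, the DEGs of 3 pathway lists with *Rec114*, *Hormad1*, *Hormad2*, *Trip13* and *Dmc1*, the 5 genes nearest to the mean profile and 4 check genes (*Ddx4*, *Dazl*, *Bmpr1a* and *Zglp1*). *Rec8*, *Atm*, *Pilra*, *Foxl2* and *Cyp26b1* were named after their values were seen. Of the genes that the rule covers, 2 are not reported here.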

Additional observations from a re-analysis of the deposited data

Results flagged for a closer look

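*Spo11* had 1 library far below the other 3 in each genotype. In control library 2 it had 5.93 CPM, where the others had 9.95 to 10.3, and in *Bmpr1a*-cKO library 1 it had 5.84 CPM, where the others had 9.22 to 9.74. The gap to the nearest library was 0.919 and 0.868 of the range of the group, above Dixon's critical value for a group of this size. Of 16 groups examined, 8 genes in 2 genotypes, these were the only ones past it. Chance takes about 1 in 20 groups past it, a rate for each group that is not adjusted for the 16 examined. The cause was not tested.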

How the results depend on the processing

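Under 18 alternatives, *Mei1*, *Mei4*, *Ccdc36*, *Ankrd31*, *Prdm9* and *Zcwpw1* kept their direction and their call. *Gm960* lost its call without control library 4 (−0.84). *Spo11*, never called, reached −0.22 when control library 2 was left out and changed sign, to 0.066, when *Bmpr1a*-cKO library 1 was. The number of the 8 genes called was 6 to 7 with a library left out. With no fold threshold 9 cofactors (8 lower) and 8 end processing genes (3 lower) were called. With that threshold kept, 5 to 8 cofactors were called with a library left out. Library size alone moved the median Log2FC of all genes to −0.06. The *Prdm9* matches at −47 and −41 remain when only the 250 upstream bases are searched, with all-promoter shares of 6.42% for CNCCTCAG and 1.86% for GGCGGGAA. *Gm960* is limited by depth, at 7 to 27 counts in *Bmpr1a*-cKO libraries.

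With the replicate number as a block 7 of the 8 genes were called, and 1457 DEGs were found over all genes beside 1449. Deviations of same-numbered libraries correlated at 0.198, 0.161, 0.108 and −0.09, so the numbers were not taken to pair the libraries, and not every library correlated best with its own number. The block changed the call of no DSB gene. For the ratios, permutation within replicate numbers cannot give a p under 0.125. No ratio changed sign with a prior count of 0.5.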
